A study of Mus musculus with 12 samples.

Results

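The genes described here are 35 genes of fetal germ cell identity, of pluripotency and of the piRNA pathway of prospermatogonia, out of 24470 genes in the count table. They were taken from the table by symbol, from a list of names made for their function, with earlier results of these data known. All 35 were found, and all 35 passed the filter on low counts, as did 15572 genes in all.

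RNA-seq was measured in whole E14.5 mouse testes, in 6 control pools and 6 cKO pools of 3 testes each, to ask what the loss of the nuclear receptor Nr2f2 from the interstitium changes. Control embryos carried floxed Nr2f2 alleles (Nr2f2 f/f) without Cre. The cKO embryos carried the same floxed alleles with Wt1-CreER, a targeted allele of Wt1 that makes a Cre switched on by tamoxifen. Carriers thus also differed from controls at Wt1, and a part of this in the results was not tested. Tamoxifen was given at E11.5 and E12.5 to the mothers of both groups. Wt1 marks somatic progenitors of the gonad, so the deletion is aimed at somatic cells, where the study describes it as incomplete, and germ cell RNA was read in a mixture of all cells of the testis.

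Germ cells of the fetal mouse testis are called prospermatogonia. They arise from primordial germ cells that express pluripotency factors, and in the testis they silence these factors, stop dividing and do not enter meiosis, a choice held in place by RNA-binding proteins such as NANOS2. They then methylate their genome anew, guided at transposons by piRNAs, small RNAs that PIWI proteins carry and that Tudor domain proteins help to make and load.

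The libraries held from 7044531 to 59404778 counts. Expression is given as CPM, the counts after division by the TMM-adjusted size of each library. The targeted gene Nr2f2 had a log2 fold change of -1.21 in cKO testes (edgeR adjusted p = 0.000548). Xist, the RNA of the inactive X chromosome in XX cells, had 891 CPM in control replicate 1 and 304, 507 and 433 CPM in cKO replicates 3, 5 and 6, against 5.15 to 7.68 CPM in the other 8 libraries. The summed level of the Y-linked genes Ddx3y, Eif2s3y, Kdm5d and Uty was 197 CPM in control replicate 1 and 225 to 258 CPM in these cKO replicates, and 287 to 445 CPM in the other 8. Foxl2, a transcription factor of pre-granulosa cells of the ovary, was at 47.2 CPM in control replicate 1, at 14.6 to 19.3 CPM in the same 3 cKO replicates and at 0.23 to 1.30 CPM elsewhere. These 4 libraries stood apart from the others. They are called testis pools as labelled, and whether they held XX tissue was not tested. Every comparison was also made in the other 8, which are 5 control and 3 cKO libraries. In those 8, Foxl2 was at 0.23 to 0.53 CPM in control and 0.859 to 1.30 CPM in cKO libraries (log2 fold change 1.45, edgeR adjusted p = 0.00958). Of 10 pre-granulosa markers 3 were called higher there, Foxl2, Fst and Bmp2, and 1 lower, Wnt4, with summed levels of 202 to 231 CPM in control and 209 to 214 CPM in cKO libraries. Their part in the results from these 8 libraries was not tested. The summed level of 19 meiosis genes was 1708 and 1711 CPM in cKO replicates 5 and 6, 690 and 698 CPM in control replicate 1 and cKO replicate 3, and 325 to 555 CPM in the other 8.

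The levels of these genes in the whole testis differed widely. Per kilobase of exon, the level in control testes was highest for Dppa3, which guards methylation marks, at 370 ± 109 CPM per kilobase (SD, n = 6 pools). It was followed by Dazl at 196 ± 47.4 and by Dppa5a at 168 ± 59.6 CPM per kilobase (SD, n = 6 pools). The transcription factor Pou5f1, Mael and the helicase Ddx4 came next at 103, 100.5 and 95.8 CPM per kilobase. At the other end stood Tdrd6 at 0.0815 ± 0.0256, Tfap2c at 0.720 ± 0.215 and Prdm14 at 1.74 ± 0.455 CPM per kilobase (SD, n = 6 pools). On this scale 5 of the genes were above 100, 19 between 10 and 100, 9 between 1 and 10, and 2 under 1. In 31 of the 34 pairs of neighbours in this order the control pools overlapped, so the order is known only coarsely. The order of the first 4 genes was the same in cKO testes, and Ddx4 stood before Mael there.

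**Figure D1:**
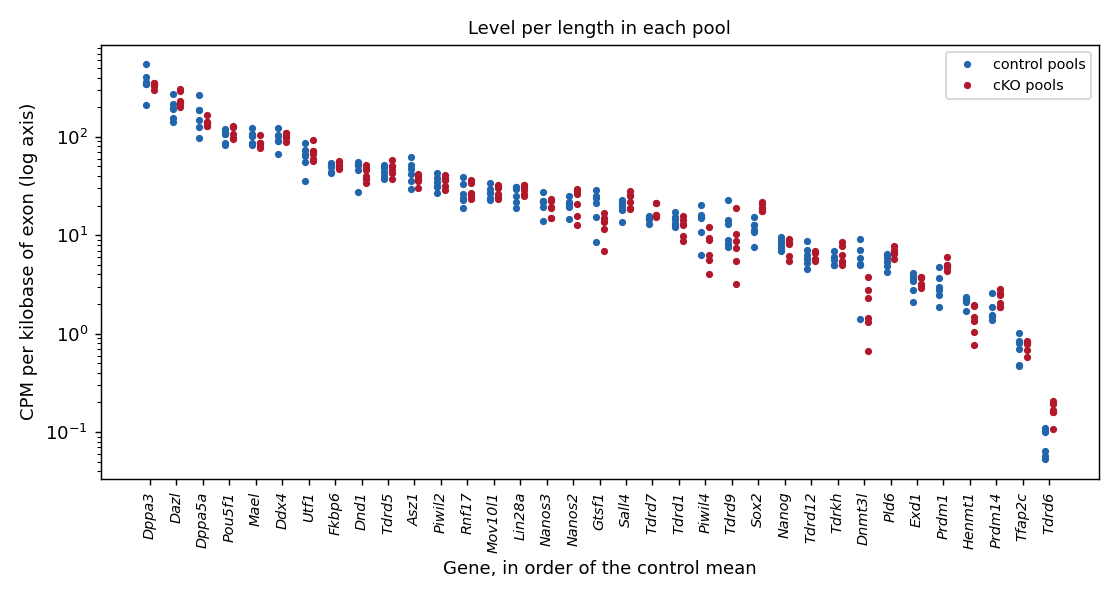
CPM per kilobase of exon (log axis) of the 35 genes in each of 6 control and 6 cKO pools, in order of the control mean. Control means run from 0.0815 CPM per kilobase for Tdrd6 to 370 CPM per kilobase for Dppa3, and in most genes the points of both groups overlap.

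Few of these genes passed the test between control and cKO testes. In edgeR's quasi-likelihood test, 3 of 35 were higher in cKO testes (8.57%, where 3.28% of all genes tested were called higher) and 1 of 35 was lower (2.86%, where 4.85% of all genes were called lower). The genes called higher were Sox2, Prdm1 and Tdrd6, and the gene called lower was Dnmt3l. Without control replicate 1 the same test called 3 of 35 higher and 3 of 35 lower, beside 9.44% and 10.5% of all genes, so the share of these genes called higher was then not above that of all genes. At an unadjusted p under 0.05 there were 5 higher and 4 lower, beside 12.1% and 13.2% of all genes tested, which is close to the background. The median log2 fold change of the 35 genes was 0.06, beside 0.003 over all genes tested, with 21 above and 14 below 0, and 25 of 35 lay within 0.3 of 0. In 1 gene, Sox2, every cKO pool lay above every control pool, where 2.39% of all genes tested did so and 3.13% had every cKO pool below. None of the 35 had every cKO pool below every control pool.

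The same counts were found in the 8 libraries with low Xist, although the genes were not all the same. There 3 of 35 were called higher, beside 3.68% of all genes, and they were Sox2, Tdrd6 and Nanos2. The gene called lower was again Dnmt3l, beside 3.39% of all genes. With 3 cKO and 5 control libraries, the groups did not overlap for 7 of the 35 genes with cKO higher, beside 13.6% of all genes, and for 2 with cKO lower, Dnmt3l and Mael, beside 14.6%. The median log2 fold change in these 8 libraries was -0.02, and the sign was the same as in all 12 libraries for 27 of 35 genes. Since the RNA came from whole testes, fewer cells of a type and less RNA per cell cannot be told apart. The labels do not say that pools came from separate litters, so the p-values measure the spread between pools.

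**Figure D2:**
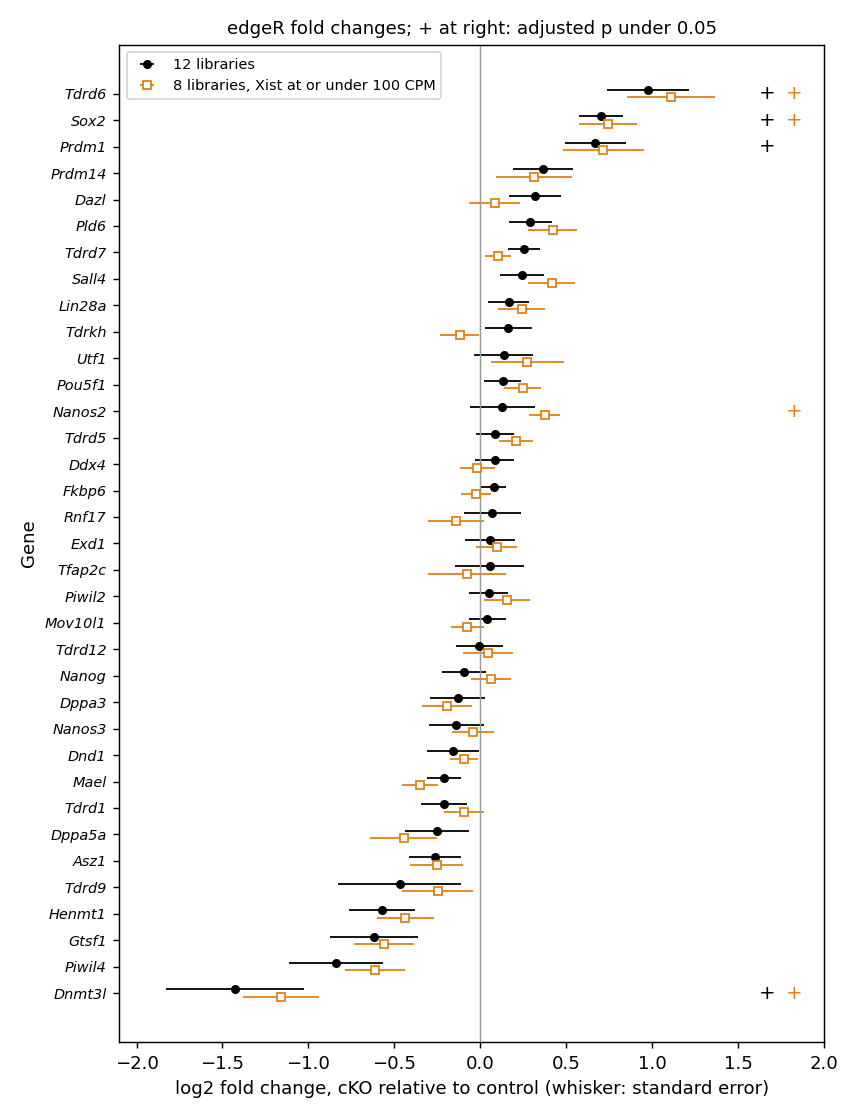
Log2 fold change of each gene in cKO relative to control testes with its standard error, in 12 libraries (filled circles) and in the 8 with low Xist (open squares), where plus signs mark an edgeR adjusted p under 0.05. Fold changes run from -1.43 for Dnmt3l to 0.97 for Tdrd6, and most lie close to 0.

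The 5 RNA-binding proteins that define germ cells gave no call in all 12 libraries, with 0 of 5 at an unadjusted p under 0.05 in edgeR and no call in DESeq2. Ddx4, the DEAD-box helicase used to mark germ cells, lay between 203 and 368 CPM in control pools (median 289) and between 268 and 334 CPM in cKO pools (median 304). The cKO pools lay inside the range of the controls, whose lowest pool was replicate 1. Between groups the log2 fold change was 0.08 ± 0.11 (SE, edgeR adjusted p = 0.668). Dazl, a translational regulator, lay between 427 and 834 CPM in control pools (median 595) and between 618 and 928 CPM in cKO pools (median 691). The highest pools were cKO replicates 5 and 6, the libraries with the most meiosis RNA, and a part of that in the level of Dazl was not tested. For Dazl the log2 fold change was 0.32 ± 0.15 in all libraries and 0.08 ± 0.15 in the 8 with low Xist (SE, edgeR adjusted p = 0.203 and 0.734).

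The promoter of Ddx4 is shown because it holds an E-box, a short palindrome shared with several piRNA pathway genes described later. The promoter windows are 300 bases from RefSeq on GRCm38.p6, printed in lower case with motif matches in capitals, here the E-box CACGTG and the E2F-like GGCGGGAA.
Ddx4, chr13:112652261-112652560, minus strand: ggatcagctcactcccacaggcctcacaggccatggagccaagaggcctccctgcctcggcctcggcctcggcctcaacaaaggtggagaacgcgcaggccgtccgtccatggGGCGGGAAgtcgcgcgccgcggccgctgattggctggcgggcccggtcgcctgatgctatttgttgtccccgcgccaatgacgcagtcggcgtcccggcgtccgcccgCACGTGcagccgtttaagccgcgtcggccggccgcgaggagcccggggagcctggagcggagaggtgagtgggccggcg

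Nanos2, the RNA-binding protein that blocks meiosis in male germ cells, lay between 23.0 and 39.6 CPM in control pools (median 32.7) and between 20.1 and 45.8 CPM in cKO pools (median 36.8). The 3 cKO pools with low Xist, at 40.7 to 45.8 CPM, were above every control pool, whereas cKO replicates 5 and 6, at 20.1 and 24.6 CPM, were among the 3 lowest libraries together with control replicate 1. In all 12 libraries its log2 fold change was 0.13 ± 0.19 (SE, edgeR adjusted p = 0.692). Without the 4 libraries with high Xist it was 0.37 ± 0.09 (SE, edgeR adjusted p = 0.032). Nanos3 and Dnd1, both needed for the survival of primordial germ cells, had log2 fold changes of -0.14 and -0.16, and their pools overlapped. Control replicate 1 was the lowest control pool for each of these 5 genes.

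Of the 11 genes of pluripotency and germ cell specification, edgeR called 2 higher, Sox2 and Prdm1, and none lower. Among all genes 3.28% were called higher and 4.85% lower. At an unadjusted p under 0.05 in edgeR there were also 2 higher and 0 lower, beside 12.1% and 13.2% of all genes. In the 8 libraries with low Xist 1 was called higher, Sox2, beside 3.68% of all genes. Sox2 (Entrez Gene 20674), a high mobility group transcription factor of the pluripotency network that neural and other stem cells also express, lay between 15.8 and 31.3 CPM in control pools (median 24.8) and between 36.0 and 44.4 CPM in cKO pools (median 38.8). Every cKO pool was above the highest control pool, and the groups did not overlap with or without the libraries with high Xist. Its mean was 24.2 ± 5.20 CPM in control pools against 39.5 ± 3.53 CPM in cKO pools (SD, n = 6). The log2 fold change of Sox2 was 0.70 ± 0.13 (SE, edgeR adjusted p = 0.0039) in 12 libraries and 0.74 ± 0.17 (SE, edgeR adjusted p = 0.0246) in the 8 with low Xist. It was called in each of the 20 other settings tried.

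Prdm1 (Entrez Gene 12142), the transcriptional repressor BLIMP1 that primordial germ cell specification needs, lay between 10.1 and 25.8 CPM in control pools (median 15.5) and between 23.2 and 32.7 CPM in cKO pools (median 26.5). In cKO testes 4 of 6 pools were above every control pool, and control replicate 3 was the only control within the range of the cKO pools. The log2 fold change of Prdm1 was 0.67 ± 0.18 (SE, edgeR adjusted p = 0.0324), and 0.71 ± 0.24 (SE, edgeR adjusted p = 0.0863) in the 8 libraries with low Xist. The call was lost when control replicate 4 or 6 or cKO replicate 1, 3, 4 or 5 was left out (highest edgeR adjusted p = 0.0758). Prdm1 is also known from immune and endothelial cells. Of 10 immune markers 3 were called higher, beside 3.28% of all genes. The summed level of the 10 was 54.3 to 85.1 CPM in control and 79.7 to 97.6 CPM in cKO pools, with none of them at 0. Of 6 endothelial markers 1 was called lower, with sums of 343 to 494 CPM in control and 344 to 424 CPM in cKO pools. Their part in the level of Prdm1 was not tested.

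The promoters of Sox2 and Prdm1 are shown as those of the called genes of this group. In capitals is the nuclear receptor half-site AGGTCA, read on the other strand as TGACCT, which Sox2 holds near the upstream end of its window. None of the 4 motifs searched was present in the window of Prdm1.
Sox2, chr3:34649745-34650044, plus strand: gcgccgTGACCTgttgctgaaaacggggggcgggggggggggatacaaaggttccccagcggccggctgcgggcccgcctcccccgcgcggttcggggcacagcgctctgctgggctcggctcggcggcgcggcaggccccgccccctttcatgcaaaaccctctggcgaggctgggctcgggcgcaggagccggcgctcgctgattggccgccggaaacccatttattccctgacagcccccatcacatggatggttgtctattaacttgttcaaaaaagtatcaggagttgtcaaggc
Prdm1, chr10:44458699-44458998, minus strand: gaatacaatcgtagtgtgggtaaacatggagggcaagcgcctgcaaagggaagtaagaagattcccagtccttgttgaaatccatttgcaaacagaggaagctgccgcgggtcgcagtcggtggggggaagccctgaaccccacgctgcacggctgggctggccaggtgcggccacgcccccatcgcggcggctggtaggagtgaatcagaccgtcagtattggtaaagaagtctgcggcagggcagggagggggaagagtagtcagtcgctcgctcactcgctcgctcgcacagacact

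The other 9 genes of this group were not called. Pou5f1, the transcription factor OCT4, lay between 112 and 165 CPM in control pools (median 145) and between 128 and 174 CPM in cKO pools (median 158). Both groups overlapped, with a log2 fold change of 0.13 ± 0.11 (SE, edgeR adjusted p = 0.472). Nanog, its partner in the pluripotency network, averaged 18.5 ± 2.28 CPM in control pools against 17.2 ± 3.33 CPM in cKO pools (SD, n = 6), with its 2 lowest libraries in cKO replicates 5 and 6. Sall4, a zinc finger factor, Lin28a, which blocks let-7 miRNAs, and Utf1, a chromatin protein of pluripotent cells, had log2 fold changes of 0.24, 0.16 and 0.14. In the 8 libraries with low Xist, all 3 cKO pools were above all control pools for Sall4, Lin28a and Pou5f1, with log2 fold changes of 0.41, 0.24 and 0.25, none of them called, in a subset where such separation was common among all genes, as given above.

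Dppa3 lay between 175 and 454 CPM in control pools (median 296) and between 249 and 297 CPM in cKO pools (median 285). Dppa5a, a KH-domain protein of pluripotent cells, lay between 59.7 and 165 CPM in control pools (median 104) and between 79.8 and 103 CPM in cKO pools (median 86.4). For both genes the cKO pools sat within the spread of the controls, whose extremes were replicate 1 at the bottom and replicate 5 at the top. The annotation lists near copies of Dppa3, Dppa5a and Nanog, so reads of these genes may be split or lost between copies. Tfap2c and Prdm14, which act with Prdm1 in primordial germ cells, stood at the low end. Tfap2c lay between 1.53 and 3.32 CPM in control pools (median 2.48) and between 1.92 and 2.76 CPM in cKO pools (median 2.61), and Prdm14 between 3.52 and 6.69 CPM (median 3.95) and between 4.76 and 7.33 CPM (median 5.80). Their log2 fold changes were 0.05 ± 0.20 and 0.37 ± 0.17 (SE, edgeR adjusted p = 0.888 and 0.204).

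**Figure D3:**
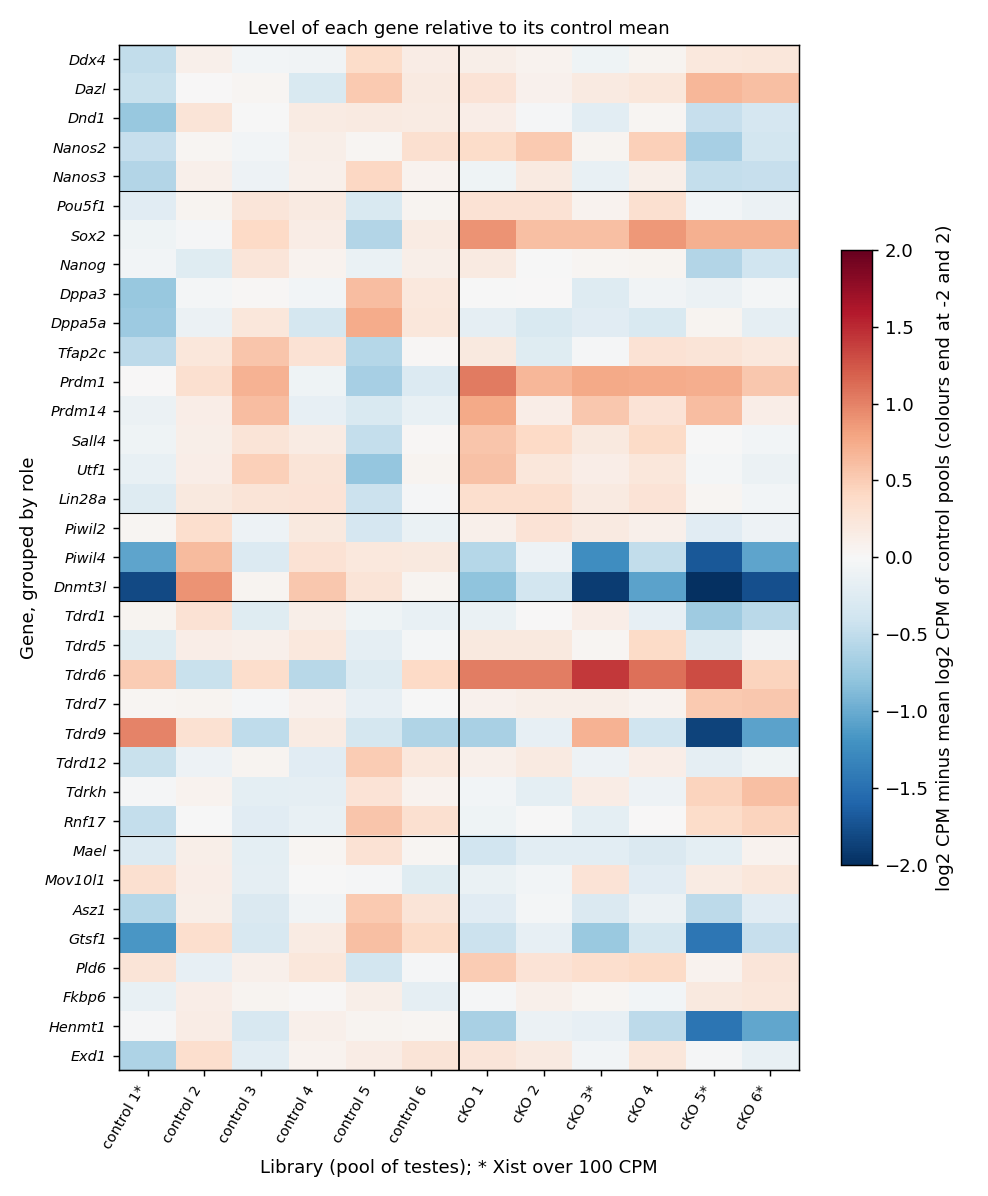
Log2 CPM of each gene in each library minus its mean over the 6 control pools, with genes grouped by role and an asterisk at the 4 libraries with Xist over 100 CPM. Sox2, Prdm1 and Tdrd6 are above the control mean in all 6 cKO pools and Dnmt3l is below it in all 6, and control 1 is as low as the cKO pools for Dnmt3l.

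The genes that link piRNAs to DNA methylation held the only fall among the 35 genes that passed the test in all 12 libraries. Dnmt3l (Entrez Gene 54427), a catalytically inactive cofactor of the de novo DNA methyltransferases, lay between 3.73 and 24.2 CPM in control pools (median 14.6) and between 1.76 and 10.05 CPM in cKO pools (median 5.01). Control replicate 1, at 3.73 CPM, was inside the range of the cKO pools, whereas the other 5 controls were at 13.4 CPM or more and above every cKO pool. Within the cKO group, replicates 3, 5 and 6 were the 3 lowest pools, at 3.50, 1.76 and 3.85 CPM. Its mean fell from 14.9 ± 6.81 to 5.46 ± 3.02 CPM (SD, n = 6 pools), with a log2 fold change of -1.43 ± 0.40 (SE, edgeR adjusted p = 0.0412). In the 8 libraries with low Xist the groups did not overlap, and the log2 fold change was -1.16 ± 0.22 (SE, edgeR adjusted p = 0.011). In the fits that left out 1 library, the log2 fold change lay between -1.66 and -1.23, and the call was kept in 2 of 12, those without control replicate 1 or without cKO replicate 2 (edgeR adjusted p from 0.00344 to 0.0993 over the 12). With limma-voom it was not called (log2 fold change -1.32, adjusted p = 0.103).

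Piwil4 (Entrez Gene 330890), the nuclear PIWI protein MIWI2 that directs methylation to transposons, lay between 22.3 and 71.3 CPM in control pools (median 52.9) and between 14.2 and 42.8 CPM in cKO pools (median 26.6). Its pools were ordered much as for Dnmt3l, with control replicate 1 the lowest control and cKO replicates 3, 5 and 6 the lowest cKO pools. Its log2 fold change was -0.84 ± 0.27 (SE, edgeR adjusted p = 0.0741), and -0.61 ± 0.18 (SE, edgeR adjusted p = 0.0611) in the 8 libraries with low Xist. It passed the threshold without control replicate 1, without cKO replicate 2 and with Xist as a covariate. Piwil2, the cytoplasmic PIWI protein MILI that makes the primary piRNAs, averaged 168 ± 28.4 CPM in control pools against 173 ± 22.0 CPM in cKO pools (SD, n = 6), and its log2 fold change was 0.05 ± 0.11 (SE, edgeR adjusted p = 0.817). The 4 libraries with high Xist, which also held the most meiosis RNA, were the 4 lowest for both Dnmt3l and Piwil4. Without them Dnmt3l was called lower and Piwil4 was not, with the values given above. The part of these libraries in the levels of both genes was not tested.

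Dnmt3l is shown with the promoter at the gene start used for counting and with a second promoter inside that interval, since the table gives it several start sites. The second window holds an E-box, in capitals, and the first holds none of the motifs searched.
Dnmt3l at the counted start, chr10:78042037-78042336, plus strand: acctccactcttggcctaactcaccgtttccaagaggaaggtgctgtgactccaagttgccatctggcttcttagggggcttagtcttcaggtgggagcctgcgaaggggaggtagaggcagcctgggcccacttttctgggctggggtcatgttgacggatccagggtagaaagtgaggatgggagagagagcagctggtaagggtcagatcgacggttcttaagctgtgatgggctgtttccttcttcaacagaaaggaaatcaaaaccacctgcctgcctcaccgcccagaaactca
Dnmt3l at an internal start, chr10:78049592-78049891, plus strand: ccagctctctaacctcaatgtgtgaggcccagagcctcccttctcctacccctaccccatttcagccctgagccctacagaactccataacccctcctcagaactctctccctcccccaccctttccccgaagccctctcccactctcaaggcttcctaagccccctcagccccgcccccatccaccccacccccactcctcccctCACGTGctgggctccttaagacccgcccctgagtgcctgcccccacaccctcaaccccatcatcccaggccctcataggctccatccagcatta

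**Figure D4:**
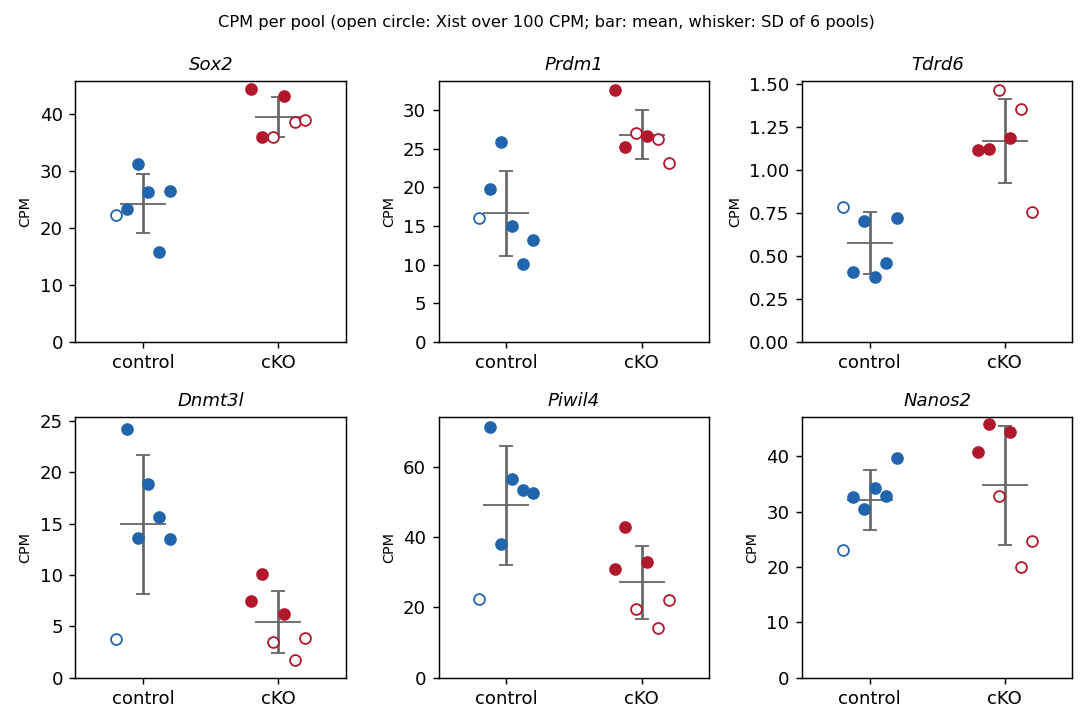
CPM of 6 genes in each pool, with open circles for the 4 libraries with Xist over 100 CPM, a bar at the group mean and whiskers of 1 SD (n = 6 pools). Sox2 does not overlap between groups, Dnmt3l overlaps through control replicate 1, Piwil4 through control replicates 1 and 3, and Nanos2 separates only when the open circles are set aside.

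Of the 8 Tudor domain proteins, which scaffold the piRNA machinery, 1 was called higher and none lower, beside 3.28% and 4.85% of all genes. Tdrd6 (Entrez Gene 210510), known from the chromatoid body of later male germ cells, lay between 0.377 and 0.785 CPM in control pools (median 0.582) and between 0.753 and 1.46 CPM in cKO pools (median 1.15). In cKO testes 5 of 6 pools were above every control pool, and cKO replicate 6 was within their range. These levels rest on 5 to 51 counts per library. Its log2 fold change was 0.97 ± 0.24 (SE, edgeR adjusted p = 0.0228), and 1.11 ± 0.26 (SE, edgeR adjusted p = 0.0264) in the 8 libraries with low Xist. The call was lost without control replicate 2 or 4 or cKO replicate 3 or 4 (highest edgeR adjusted p = 0.0575).

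Tdrd7, a component of germ granules, had a log2 fold change of 0.25 ± 0.10 (SE, edgeR adjusted p = 0.116) with 4 of 6 cKO pools above every control pool. Its highest libraries were cKO replicates 5 and 6, and in the 8 libraries with low Xist its log2 fold change was 0.10. Tdrd9, a helicase that acts with MIWI2, was the most variable of the 35 genes, at 36.6 to 110 CPM in control pools (median 52.7) and 15.3 to 90.2 CPM in cKO pools (median 38.7). Control replicate 1 and cKO replicate 3 were its 2 highest libraries and cKO replicates 5 and 6 its 2 lowest, so libraries with high Xist lay at both ends. Tdrd1, a partner of MILI in the granules between mitochondria, also had its 2 lowest libraries in cKO replicates 5 and 6. The log2 fold changes of Tdrd1, Tdrd9 and Tdrd12 were -0.21, -0.47 and -0.01, and those of Tdrd5, Rnf17 and Tdrkh, the mitochondrial protein needed to trim piRNAs, were 0.09, 0.07 and 0.16. Leaving out cKO replicate 3 moved Tdrd9 to -0.82, leaving out control replicate 1 moved it to -0.20, and Tdrd1 was at -0.14 without cKO replicate 5. None of these was called.

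Among the 8 other piRNA biogenesis factors no gene was called by edgeR. At an unadjusted p under 0.05 in edgeR 1 was higher and 2 were lower, beside 12.1% and 13.2% of all genes. DESeq2 called 1 lower, Henmt1, beside 6.65% of all genes. Henmt1, the methyltransferase that protects the 3′ ends of piRNAs, lay between 4.17 and 5.82 CPM in control pools (median 5.39) and between 1.90 and 4.83 CPM in cKO pools (median 3.47). In cKO testes 4 of 6 pools were below every control pool, and replicates 5 and 6 were the lowest. By edgeR the log2 fold change was -0.57 ± 0.19 (SE, edgeR adjusted p = 0.0852), with a DESeq2 adjusted p of 0.0328 and a call by edgeR without cKO replicate 2 (adjusted p = 0.0499), and -0.44 ± 0.17 (SE, edgeR adjusted p = 0.124) in the 8 libraries with low Xist. Gtsf1, a zinc finger cofactor of PIWI proteins, averaged 24.6 ± 8.88 CPM in control pools against 15.7 ± 4.17 CPM in cKO pools (SD, n = 6) and was lowest in cKO replicate 5 and control replicate 1. Its log2 fold change was -0.62 ± 0.25 (SE, edgeR adjusted p = 0.15), and the fit without control replicate 1 called it lower (edgeR adjusted p = 0.0135).

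Pld6, the mitochondrial nuclease that cuts piRNA precursors, had a log2 fold change of 0.29 ± 0.12 (SE, edgeR adjusted p = 0.163), with 4 of 6 cKO pools above every control pool. Mael, a factor of transposon silencing, averaged 174 ± 24.9 CPM in control pools against 150.5 ± 16.3 CPM in cKO pools (SD, n = 6). In the 8 libraries with low Xist its groups did not overlap, and its log2 fold change there was -0.35 ± 0.10 (SE, edgeR adjusted p = 0.0645). The scaffold protein Asz1, the helicase Mov10l1, the co-chaperone Fkbp6 and Exd1, an RNA-binding partner of Tdrd12, had log2 fold changes of -0.26, 0.04, 0.08 and 0.06. Mov10l1, like Tdrd9, had its 2 highest libraries in control replicate 1 and cKO replicate 3.

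The spread between pools differed among genes and between groups. The coefficient of variation of CPM over control pools ran from 6.07% to 46.2% with a median of 21.5%, and over cKO pools from 6.34% to 60.2% with a median of 15.8%. It was larger in control testes for 24 of 35 genes. Control replicate 5 was the lowest of all 12 libraries for 11 genes and the highest for 9, control replicate 1 was the lowest for 10 and cKO replicate 5 for 9. The summed level of the 35 genes was 2544 CPM in control replicate 1, 3124 to 3691 CPM in the other control pools and 3187 to 3448 CPM in cKO pools. Cells other than germ cells add to each pool. The summed level of 10 Sertoli markers ran from 735 to 1235 CPM in control and from 725 to 1242 CPM in cKO pools, with none of them called. Of 6 interstitial markers, Nr2f2 among them, 3 were called lower, with sums of 2546 to 3468 CPM in control and 1330 to 2743 CPM in cKO pools. Of 6 Leydig cell markers 4 were called lower, with sums of 1849 to 3140 CPM in control and 1035 to 1995 CPM in cKO pools. CPM are shares of a whole, and the part of these falls in the levels of the germ cell genes was not tested.

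Set against Ddx4 in the same library, as a description of level per germ cell transcript, Dnmt3l had a mean log2 ratio of -4.45 in control and -6.02 in cKO testes, and Piwil4 of -2.63 and -3.59. The ratio of Sox2 was -3.58 in control and -2.95 in cKO testes. It ran from -4.54 to -3.12 in control pools, just below its range of -3.10 to -2.78 in cKO pools. The ratio of Prdm1 was -4.16 and -3.52, and its ranges overlapped. Ddx4 itself had a log2 fold change of 0.08, so scaling to it could hardly turn the directions of these 4 genes. It is no test of them, and the ratios were worked out after the values were seen. For some genes with log2 fold changes closer to none, such as Nanos2 and Piwil2, the sign did change.

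Other genes of the same pathways were given by lists. For 16 other genes of fetal germ cells and pluripotency, the median log2 fold change was 0.21. In 12 libraries 2 of them were called higher and none lower, beside 3.28% and 4.85% of all genes. They were Taf4b, a germ cell subunit of the TFIID complex, at 77.7 ± 5.596 CPM in control pools against 109.8 ± 18.5 CPM in cKO pools (SD, n = 6, log2 fold change 0.50, edgeR adjusted p = 0.00643), and Tex19.1, a transposon control gene, at 82.1 ± 7.23 and 103 ± 9.88 CPM (SD, n = 6 pools, log2 fold change 0.33, edgeR adjusted p = 0.0172). Both stayed called in the 8 libraries with low Xist (edgeR adjusted p = 0.0204 and 0.0113). Of 14 other piRNA and DNA methylation genes, 1 was called higher, Btbd18, a regulator of piRNA precursor transcription (log2 fold change 0.41, edgeR adjusted p = 0.0424). Morc1, which silences transposons in male germ cells, averaged 94.7 ± 31.9 CPM in control pools against 53.2 ± 17.5 CPM in cKO pools (SD, n = 6, log2 fold change -0.82, edgeR adjusted p = 0.0637). In the 8 libraries with low Xist Morc1 was the gene of this list called lower (log2 fold change -0.65, edgeR adjusted p = 0.0492) and Btbd18 was not called (edgeR adjusted p = 0.141). The methyltransferase Dnmt3a, which Dnmt3l assists, had a log2 fold change of 0.02. Of 8 genes of the Nodal pathway, which upholds pluripotency factors in fetal germ cells, none was called by edgeR. At an unadjusted p under 0.05 in edgeR 2 were higher and 2 lower, beside 12.1% and 13.2% of all genes.

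Of 19 meiosis genes 1 was called higher, Meioc (log2 fold change 2.62, edgeR adjusted p = 0.0488, and 0.54 with edgeR adjusted p = 0.0463 in the 8 libraries with low Xist). In 12 libraries all 19 had a log2 fold change above 0, with a median of 0.85, where 7885 of 15572 genes were above 0. In the 8 libraries with low Xist 11 were above and 8 below 0, with a median of 0.15. Stra8, the gene that opens the meiotic programme, was at 87.7 and 73.6 CPM in cKO replicates 5 and 6 and at 2.58 to 10.2 CPM in the other 10 libraries. In the same 2 libraries Nanog, Tdrd1, Tdrd9 and Henmt1 had their lowest levels of all 12 and Dazl, Tdrd7, Tdrkh and Fkbp6 their highest.

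Promoters of 26 of the 35 genes were found, 38 windows in all, and searched on both strands for 4 motifs. The E-box CACGTG was present in 26.3% of these windows and in 7.15% of 32851 windows of all genes. Some windows of 1 gene overlap and count the same site again, as for Tdrd1 and Fkbp6. Counted by gene, 8 of the 26 held it, beside 8.09% of all genes. They were Ddx4, Dnmt3l, Fkbp6, Mael, Mov10l1, Pld6, Tdrd1 and Tdrd9. The half-site AGGTCA was present in 18.4% and 16.3%, GGCGGGAA in 2.63% and 2.19%, and the octamer ATGCAAAT in none of the 38 windows and in 1.74% of all. CpG dinucleotides were present at a median of 0.624 of their expected number in these windows and 0.384 in all. The E-box itself holds a CpG, and the part of CpG content in its share was not tested. Of the 8 genes with an E-box, Dnmt3l was called lower, and the other 7 had log2 fold changes from -0.47 for Tdrd9 to 0.29 for Pld6. The promoter of Mael is shown as another example, with the E-box in capitals.
Mael, chr1:166238695-166238994, minus strand: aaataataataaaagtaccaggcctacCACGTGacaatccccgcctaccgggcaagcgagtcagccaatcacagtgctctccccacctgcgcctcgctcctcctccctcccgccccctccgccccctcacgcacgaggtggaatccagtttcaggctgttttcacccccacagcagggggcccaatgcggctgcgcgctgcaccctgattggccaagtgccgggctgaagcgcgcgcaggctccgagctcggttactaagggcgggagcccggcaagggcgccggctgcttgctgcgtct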

How the data were processed

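RNA-seq counts of 12 libraries, each from a pool of 3 E14.5 testes (6 control, 6 cKO), were used. The authors trimmed and aligned read pairs to mm10, counted them by strand on RefSeq Curated genes, and deposited raw counts for 24470 genes without normalization. The submitters' processing notes name Trim Galore 0.6.7, STAR 2.5 and featureCounts of Subread 1.5.0-p1. Same-strand exons of the 35 genes overlapped no other gene.

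The comparison used edgeR 4.0.16 (R 4.3.3) with TMM scaling, filterByExpr (minimum count 10, minimum total 15), glmQLFit and glmQLFTest without covariates, and Benjamini-Hochberg adjustment over 15572 genes with a threshold of 0.05. CPM are counts scaled to the TMM-adjusted total of each library, and levels per kilobase use exon lengths of GENCODE M21. The fits were tested on simulated data. Motifs were read from the RefSeq promoter table.

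The genes and lists were chosen with earlier results of these data known. The lowest, median and highest values are given for all genes called in 12 libraries, in the 8 with low Xist or by DESeq2, for the 3 highest and 3 lowest per kilobase, and for Ddx4, Dazl, Nanos2, Dnmt3l, Pou5f1 and Piwil4. The rule gave the others by range and count, and values of single genes beyond it were added after they were seen. Alternatives were DESeq2 1.42.0 (the authors' tool), limma-voom 3.58.1, another scaling, 2 filters, a replicate block, Xist as a covariate, the 8 libraries with low Xist, and leaving out each library. The limit of 100 CPM of Xist was chosen with the levels known.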

Additional observations from a re-analysis of the deposited data

Results flagged for a closer look

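Over 70 groups of 6 pools (35 genes in 2 groups), 2 held a pool far from the others, where chance gives about 1 in 20, or 3.5. Dnd1 was at 40.1 CPM in control replicate 1 and at 67.5 CPM in the nearest control pool. Control replicate 1 also has 891 CPM of Xist. Dppa5a was at 103 CPM in cKO replicate 5 and at 87.8 CPM in the nearest cKO pool. Neither gene was called in the comparison of groups.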

How the results depend on the processing

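The number of genes called higher was 3 in all 12 libraries, 2 where at least 1 CPM in 6 libraries was required (which leaves out Tdrd6) and 3 in the other 7 settings, and it ran from 1 to 3 when 1 library was left out. The number called lower was 1, but 2 with DESeq2, 2 with Xist as a covariate, 0 with limma-voom, 0 with the replicate block (both without Dnmt3l), and 0 to 3 when 1 library was left out. The median log2 fold change of the 35 genes was -0.017 in the 8 libraries with low Xist, and when 1 library was left out it ran from -0.0014 (control replicate 1) to 0.10 (control replicate 2). The replicate numbers do not pair the pools: correlations of same-numbered pools ran from -0.33 to 0.24, and no control pool correlated best with the cKO pool of its own number. Under the replicate block 392 of all genes were called higher and 539 lower, against 510 and 756 without it, and the log2 fold change of Dnmt3l was -1.40 (adjusted p = 0.0738 from edgeR). DESeq2 called 873 and 1036 of all genes. Without control replicate 1 the counts were 1471 and 1635, and without any other single library they ran from 319 to 524 and from 497 to 757. In the 8 libraries with low Xist the log2 fold change changed sign to -0.017 for Ddx4, 0.062 for Nanog, -0.077 for Tfap2c, 0.042 for Tdrd12, -0.12 for Tdrkh, -0.14 for Rnf17, -0.075 for Mov10l1 and -0.025 for Fkbp6. With Xist as a covariate it changed to 0.038 for Dnd1, 0.021 for Nanos3, 0.026 for Dppa3, 0.11 for Tdrd12 and -0.070 for Mov10l1, and for Tdrd12 to 0.059 with limma-voom and 0.021 with the replicate block. When 1 library was left out, ranges that crossed 0 were -0.0014 to 0.17 for Ddx4, -0.25 to 0.018 for Dppa3, -0.061 to 0.19 for Tfap2c, -0.0061 to 0.12 for Piwil2, -0.090 to 0.12 for Tdrd12, -0.018 to 0.21 for Rnf17, -0.0084 to 0.11 for Mov10l1 and -0.052 to 0.13 for Exd1. None of these genes was called in any setting, and the cause of the changes was not tested. Depth limits Tdrd6, with 5 to 51 counts per library.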
